A study of Mus musculus with 2 samples.

Results

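The distal ends of the 19 mouse autosomes were examined in a map of promoter contacts that separates the 2 parental alleles. The members were all windows of 50 kb that start within 5 Mb of the last window end listed for their chromosome, chosen by position alone. They numbered 1702 of 43941 windows, 3.87% of the table and 85.1 Mb, and the other 42239 windows served as the comparison. The cells were F121-6, a hybrid female embryonic stem (ES) cell line that carries 1 chromosome set of the 129 strain and 1 of Mus castaneus (Cas). They were grown in serum and LIF on a feeder layer of mouse embryonic fibroblasts (MEFs) whose division mitomycin C had stopped. Both samples, labelled replicates 1 and 2, belong to the same untreated group of this 1 line, and since the table merges them into a single number for each allele, the spread between replicates is unknown.

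Promoter Capture Hi-C crosslinks and religates chromatin inside the nucleus, and RNA baits then pull down those products in which a promoter took part. A count is thus a number of captured contacts of a window, and the interaction distance says how far along the chromosome they reach. Mouse chromosomes carry the centromere at one end, so each autosome has a single long arm, and its distal end is where unique sequence passes into the telomere repeats that cap the chromosome. Sequence next to telomeres is known for repeats, segmental duplications and gene families that differ between strains, which makes reads there harder to place. Of the 1900 windows that 19 stretches of 5 Mb would hold, 198 were not in the table and are not analysed here, among them 60 of chromosome 19, 35 of chromosome 14 and 20 of chromosome 17.

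Of the 1702 windows, 690 overlapped 1 protein-coding gene and 414 overlapped 2 or more, while 598 held none. In the tests given further on, 4 windows with a protein-coding gene were called unequal between alleles, and RefSeq promoters of 5 genes lie in them. Their sequences are shown because these promoters stand in the windows where the alleles differed. Each line gives the 250 bases before the start, 5′ to 3′ on the gene's strand, from RefSeq on GRCm38.p6, and capitals mark the letters GGGCGG or CCGCCC, the GC box on either strand. Chrna4 encodes a subunit of the neuronal nicotinic acetylcholine receptor (chr2:181039178-181039427, minus strand). Csrnp1 encodes a nuclear protein rich in cysteine and serine (chr9:119984743-119984992, minus strand). Ccdc40 is needed for the assembly of motile cilia (chr11:119228322-119228571, plus strand). Sp1 encodes a zinc finger factor that itself binds GC boxes (chr15:102406066-102406315, plus strand), and Amhr2 the receptor of anti-Müllerian hormone (chr15:102445117-102445366, plus strand).
Chrna4: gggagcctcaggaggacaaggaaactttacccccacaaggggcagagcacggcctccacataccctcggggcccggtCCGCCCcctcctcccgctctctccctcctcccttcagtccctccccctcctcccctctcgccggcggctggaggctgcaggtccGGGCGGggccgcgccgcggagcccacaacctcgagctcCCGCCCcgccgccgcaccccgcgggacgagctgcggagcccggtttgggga
Csrnp1: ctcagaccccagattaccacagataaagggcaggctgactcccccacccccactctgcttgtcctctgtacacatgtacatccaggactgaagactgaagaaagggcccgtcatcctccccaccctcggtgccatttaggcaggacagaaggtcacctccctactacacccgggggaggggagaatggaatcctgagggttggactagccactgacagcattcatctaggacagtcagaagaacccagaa
Ccdc40: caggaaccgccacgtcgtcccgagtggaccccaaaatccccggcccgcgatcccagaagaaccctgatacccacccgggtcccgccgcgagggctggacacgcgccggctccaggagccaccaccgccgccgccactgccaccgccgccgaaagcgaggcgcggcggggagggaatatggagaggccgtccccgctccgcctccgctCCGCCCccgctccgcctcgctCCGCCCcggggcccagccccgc
Sp1: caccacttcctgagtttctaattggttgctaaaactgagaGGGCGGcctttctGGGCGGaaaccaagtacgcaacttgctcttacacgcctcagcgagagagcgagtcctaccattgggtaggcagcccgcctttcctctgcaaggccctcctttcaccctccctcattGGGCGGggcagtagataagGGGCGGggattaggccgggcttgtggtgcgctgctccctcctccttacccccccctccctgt
Amhr2: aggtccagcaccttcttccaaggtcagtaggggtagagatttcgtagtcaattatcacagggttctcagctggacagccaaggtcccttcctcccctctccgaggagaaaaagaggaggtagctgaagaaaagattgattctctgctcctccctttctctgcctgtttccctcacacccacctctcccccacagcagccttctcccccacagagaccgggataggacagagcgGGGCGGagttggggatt
These stretches differed widely in composition. The share of G and C was 76.4% for Ccdc40 and 74.4% for Chrna4, against 59.6% for Sp1, 55.6% for Csrnp1 and 55.2% for Amhr2. Ccdc40 had 35 CpG dinucleotides, Chrna4 24, Sp1 11, Amhr2 5 and Csrnp1 3. GC boxes numbered 4 at Sp1, 3 at Chrna4, 2 at Ccdc40, 1 at Amhr2 and 0 at Csrnp1, and the cut site of the restriction enzyme HindIII, AAGCTT, was in none of the 5.

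Over all 14558 protein-coding genes with such a stretch, 839 of them in the distal windows, the distal promoters had a median G and C content of 58.0% and the others 56.4%. The distal median was the higher on 14 of the 18 chromosomes with such distal stretches, the lower on 3 and equal on chromosome 5. Among the 3, chromosome 17 had only 2 distal stretches. Chromosome 18 had distal genes but none with such a stretch. A GC box lay in 49.6% of distal stretches and in 44.9% of the others (45.2% of all). The telomere repeat letters TTAGGG, searched on both strands, lay in 8.46% and 9.37%, TATAAA on both strands in 11.6% and 11.8%, and AAGCTT in 5.60% and 5.37%. Chromosome 10 went the opposite way, with a median of 47.6% G and C in 130 distal stretches against 58.8% elsewhere.

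The distal ends were richer in genes, and above all they were unlike each other. Distal windows held a mean of 1.06 protein-coding genes and the remaining windows 0.824, and 24.3% of distal windows held 2 or more genes against 16.2%. Genes per distal window ran from 0.258 on chromosome 18 and 0.300 on chromosome 17 to 1.97 on chromosomes 7 and 10, whereas the remaining windows lay between 0.641 and 1.13 on each chromosome. Olfactory receptor genes, which encode odorant receptors of the nose, account for 26 distal windows of chromosome 10 with 58 such genes.

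The first comparison asked whether distal windows had more or fewer contacts. Over all chromosomes the median distal window had 557 interactions on 129 and 415.5 on Cas, and the median remaining window 565 and 405. By chromosome the distal median of the summed count was 117 on chromosome 17, 187 on chromosome 18 and 414 on chromosome 3, but 2794.5 on chromosome 10 and 3765 on chromosome 15. The remaining windows of these 5 chromosomes had 797.5, 850, 830.5, 844 and 814. The distal median was higher on 10 chromosomes and lower on 9, with a median log2 ratio of 0.012 over chromosomes (SD 1.20, n = 19; two-sided exact sign test, p = 1). Chromosomes are the units of this and the following sign tests, 16 in all. They come from 1 pool of cells and are not replicate samples.

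These opposite shifts followed the genes. Across the 19 chromosomes the log2 ratio of distal to remaining genes per window and the same ratio of counts had a Pearson r of 0.975 (Spearman rho 0.951). These are descriptions over chromosomes of 1 pooled library, and since the baits target promoters, gene content and the number of baits cannot be told apart. Within windows of equal gene content the distal medians were lower when all windows were pooled. Windows without a gene had summed counts of 401.5 at the ends and 557 elsewhere, windows with 1 gene 1100.5 and 1244, and windows with 2 or more genes 3616 and 4205. Over chromosomes none of these held up: the distal median was lower on 9 of 19, 13 of 19 and 12 of 17 chromosomes (exact sign tests, adjusted p = 1, 0.267 and 0.267).

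**Figure D1:**
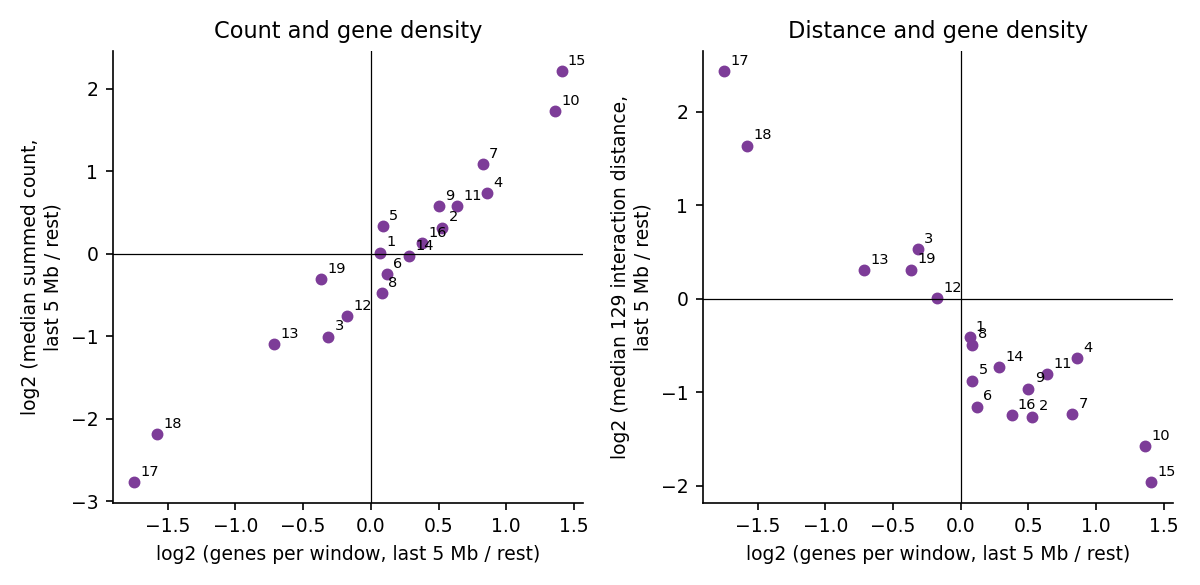
For each chromosome (points, numbered), the log2 ratio of distal to remaining windows is plotted for genes per window (x axis) against the median summed count (left) and the median interaction distance on 129 (right). Chromosomes 17 and 18, poor in distal genes, lie at low counts and long distances, and chromosomes 10 and 15 at the opposite corner.

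Contacts of the distal windows reached less far at most ends. In 1650 distal windows the 129 contacts spanned a median of 211 kb and the Cas contacts 219.5 kb, counting windows where both alleles had at least 10 interactions. The remaining windows had 355 and 353 kb. On 129 the distal median was shorter on 13 of 19 chromosomes, with a median log2 ratio of -0.73 (SD 1.10; exact sign test, p = 0.167, adjusted p = 0.267). On Cas it was shorter on 14, with -0.62 (SD 1.15; exact sign test, p = 0.0636, adjusted p = 0.203). Neither passed the threshold of 0.05. Chromosome 15 had the shortest distal medians on both alleles, with 99 kb on 129 and 96 kb on Cas, and chromosome 10 had 124 and 140 kb. Chromosome 17 had 1430 and 2430 kb and chromosome 18 had 1028.5 and 936 kb, each longer than the 264.5 to 363 kb of their remaining windows. The ratio of distances also followed that of genes per window, with r = -0.941 (rho -0.877) over the 19 chromosomes on 129.

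In windows without a gene the medians were 670 kb on 129 and 641 kb on Cas at the ends and 914 and 908 kb elsewhere. Windows with 1 gene had 210 and 213.75 kb against 263 and 267 kb, and windows with 2 or more genes 87 and 91.5 kb against 98 and 102 kb. By chromosome, the adjusted p of these 6 differences lay between 0.203 and 1.

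Along the last 5 Mb, the final 1 Mb stood out for low counts. Its 321 windows had a median summed count of 681, and the 4 bins of 1 Mb before it had 918, 1526.5, 861 and 995. In windows without a gene the medians were 137 in the final 1 Mb and 364.5, 646, 490.5 and 506 in the others. With 1 gene they were 875 and then 893, 1476.5, 1050 and 1281, so the final bin was close to the next. With 2 or more genes they were 2750 and then 3769, 4012.5, 3787 and 3799.5. Distances on 129 in windows with 2 or more genes were 67 kb in the final 1 Mb and between 89 and 113.5 kb in the 4 other bins. With 1 gene they were 171 kb and then 288, 189, 228 and 207.5 kb. Windows without a gene did not share the shorter distance, with 748 kb in the final 1 Mb and then 596.5, 353, 672 and 904.5 kb. Of the 287 windows of the final bin where both alleles had at least 10 interactions, 31.0% had a distance on 129 longer than the stretch left to the end. That share was 10.7% in the bin before and 3.04% in the next. Just inside the 5 Mb limit, 358 windows had a median count of 995 and a median ratio of -0.0021, and just outside it 348 windows had 867 and -0.046.

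**Figure D2:**
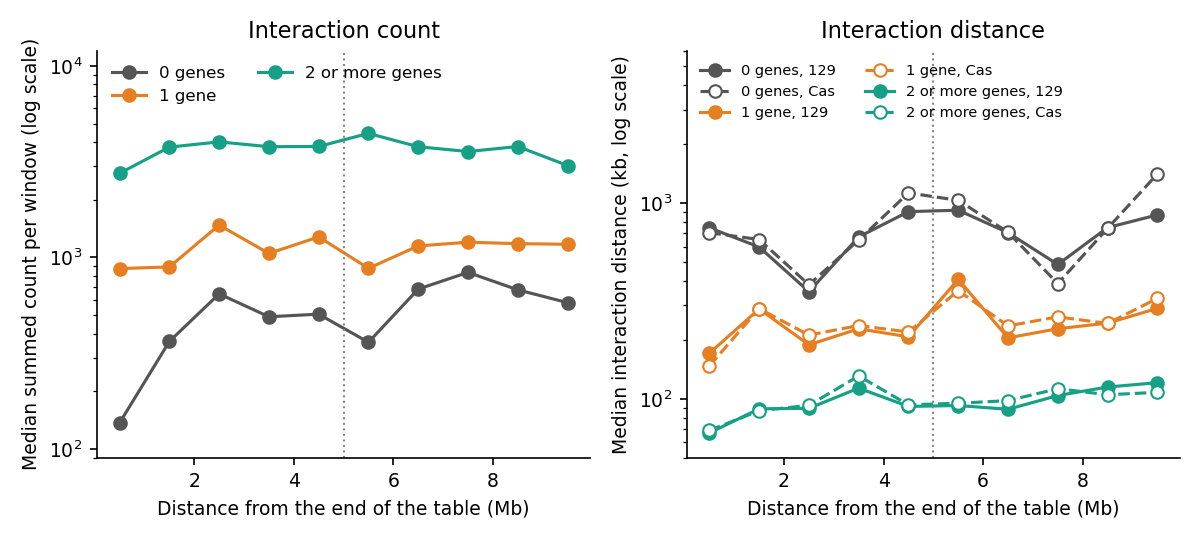
Medians of the summed interaction count (left) and of the interaction distance on 129 (filled, solid) and Cas (open, dashed; right) are plotted on log scales in bins of 1 Mb from the end of the table, for windows with 0, 1 and 2 or more protein-coding genes. The dotted line marks the limit of 5 Mb, and counts of gene-free windows are lowest in the final bin, at 137.

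Distal windows with no counted contact on either allele lay mostly at the very end. The table held 109 windows without a counted contact, of which 20 (18.3%) were distal. They were 1.18% of distal windows, against 0.211% for the remaining windows, and 19 of the 20 were in the final 1 Mb. Chromosome 13 held 10 of them, between 50 and 750 kb from its end, and chromosome 15 held 5. The genes in those of chromosome 13 included Tcstv1 and Tcstv3, a gene pair of 2-cell-like ES cells, and Hmgcs1, an enzyme of the sterol pathway. Counts are given by allele, so a missing count does not show that a locus makes no contact. The reason for the missing counts was not tested.

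The last window of each chromosome with any contact gave summed counts from 2 on chromosome 8 to 4828 on chromosome 4, with a median of 122, and 15 of the 19 were below the median window of their chromosome. On chromosome 4 it held 6 named genes, among them Isg15, a ubiquitin-like protein induced by interferon, with 2847 interactions on 129 and 1981 on Cas. The last window of chromosome 3 held Wls, which carries Wnt proteins to the cell surface, with 914 and 698. Of the 19, 18 had 10 or more interactions and were tested, and the beta-binomial test called none of them. It called 0.944% of all windows, so 18 are too few to differ from that share.

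The second comparison asked whether the alleles were shifted at the ends. Summed over the distal windows, 1907594 interactions fell on 129 and 1424091 on Cas. The 129 share was 57.26%, against 57.58% in the remaining windows. Ratios below are log2((129 + 1)/(Cas + 1)) minus the autosomal median of 0.45, so 0 stands for the typical window. The distal median was -0.034 (quartiles -0.20 and 0.16) and that of the remaining windows 0.0014 (-0.19 and 0.23). The first 5 Mb of each chromosome, its centromere side, had a median of -0.0025.

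By chromosome, the distal median ratio was the lower on 14 of 19, with a median difference of -0.034 (SD 0.11; exact sign test, p = 0.0636, adjusted p = 0.203). The 129 share was higher at the end on 10 chromosomes and lower on 9, with a median difference of 0.091 percentage points (SD 1.98; exact sign test, p = 1). Neither measure therefore showed a shift beyond the spread between chromosomes. Distal medians ran from -0.16 on chromosome 12 and -0.15 on chromosome 14 to 0.39 on chromosome 17. Across chromosomes they went along with the medians of the remaining windows only loosely, with r = 0.467 and rho 0.467 (n = 19).

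The chromosomes that stood apart did so in different ways. At the end of chromosome 17 the share on 129 was 62.8%, against 58.4% in its other windows, and 60 of 80 windows lay above 0. Chromosome 3 had 60.2% and 57.7%, with 66 of 99 windows above 0. Chromosome 10 is shifted towards 129 along its length, with a median of 0.24 in its remaining windows, and its end was less so, at 0.11. Its distal windows with olfactory receptors had a median of 0.12 and those without 0.11. On chromosome 12 the distal share was 53.8%, against 57.5% elsewhere, and on chromosome 13 it was 55.1% and 58.5%. Chromosomes 4 (55.3% and 57.2%), 16 (56.2% and 58.0%) and 19 (55.9% and 57.9%) were among the 9 with lower distal shares.

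**Figure D3:**
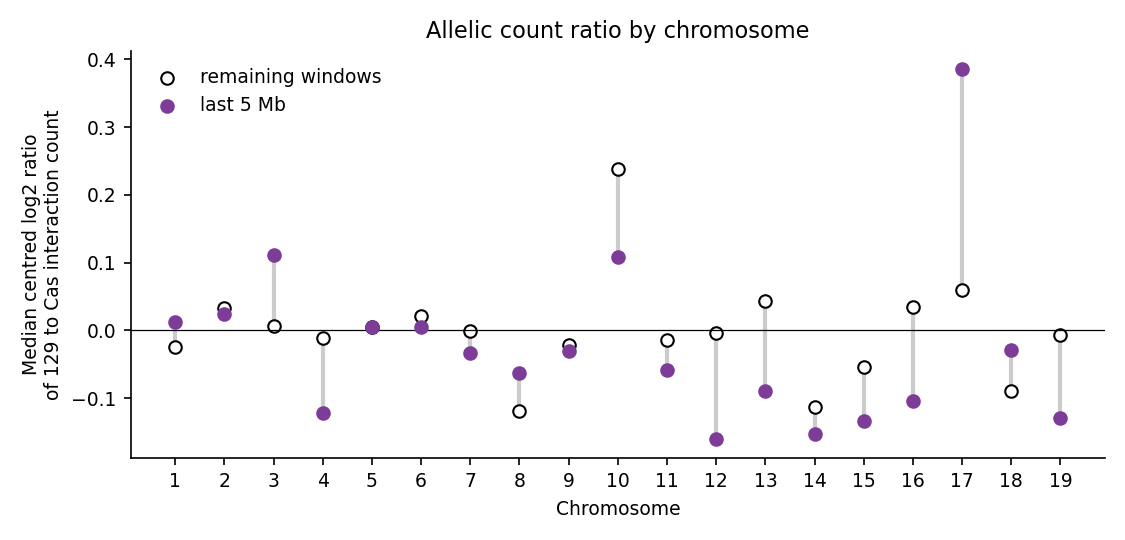
The median centred log2 ratio of 129 to Cas counts is plotted for each chromosome, in the last 5 Mb (filled) and in its remaining windows (open), joined by a line. Chromosome 17 has the highest distal median, 0.39, and on 14 of 19 chromosomes the filled point lies below the open one.

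The spread of ratios between windows was smaller at most ends. In windows with 100 or more interactions the standard deviation was 0.37 at the ends and 0.41 elsewhere. It was lower at the end on 15 of 19 chromosomes, with a median log2 ratio of -0.23 (SD 0.45; exact sign test, p = 0.0192), which did not pass after adjustment over the 16 comparisons (adjusted p = 0.203). The values ran from 0.23 on chromosome 7 to 0.74 on chromosome 17. Neighbouring distal windows with 100 or more interactions had ratios of the same sign in 61.8% of 1507 pairs (r = 0.261), against 60.5% of pairs elsewhere (r = 0.266). Since a contact between neighbours can be counted in both, these values carry no p.

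Single windows were then tested. A beta-binomial test against the autosomal 129 share, with a single overdispersion over all windows and Benjamini-Hochberg adjustment at 0.05 over all 43762 windows tested, called 14 of 1673 distal windows higher on 129 and 2 higher on Cas. Over all windows 0.727% were called higher on 129 and 0.217% higher on Cas, 0.944% together. The distal shares of 0.837%, 0.120% and 0.956% were close to that background. An exact binomial test, which allows for counting error alone, called 351 and 443 distal windows, beside 27.1% and 24.3% of all windows (51.4% together). Outside chromosome 17, the beta-binomial test called 10 of 1593 distal windows towards 129 and 2 towards Cas. Together these were 0.753%, beside the 0.944% of all windows, chromosome 17 included.

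**Figure D4:**
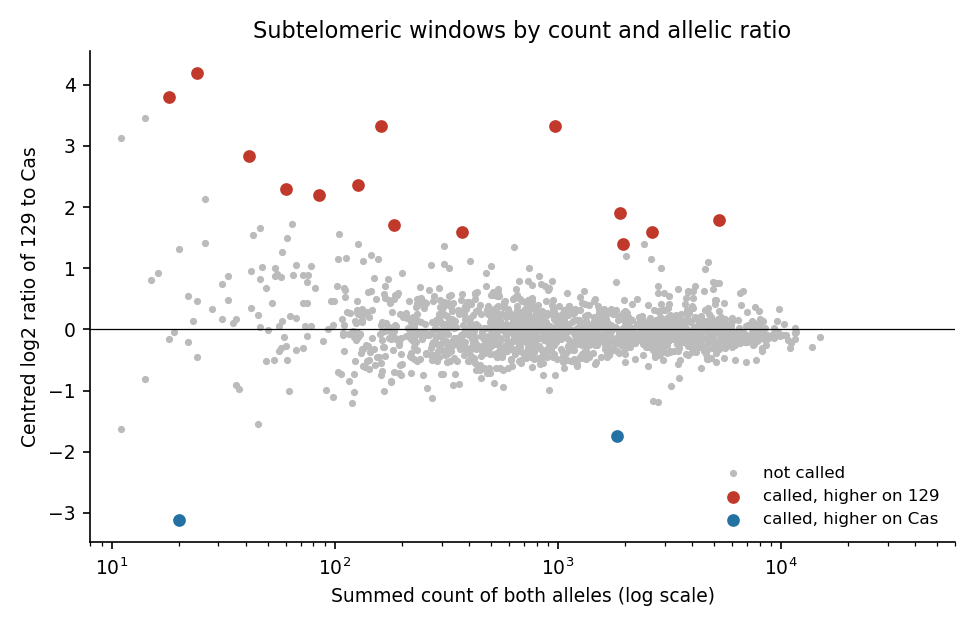
Each point is 1 of the 1673 distal windows tested, with its summed count on a log scale (x axis) and its centred log2 ratio of 129 to Cas (y axis). Called windows are red (14, higher on 129) or blue (2, higher on Cas), and those at counts under 100 needed larger ratios.

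Among the 16 called windows, 4 overlapped named protein-coding genes, and all 4 were higher on 129. They were 0.983% of the 407 distal windows tested with 2 or more genes, against 0.792% of such windows elsewhere. Calls elsewhere in that class also went mostly towards 129, with 43 on 129 and 11 on Cas. Of 681 distal windows tested with 1 gene, 0 were called, against 0.902% elsewhere. The window of Chrna4 and of the collagen gene Col20a1 on chromosome 2 (181000001 to 181050000) counted 4332 interactions for 129 and 913 for Cas. Its 129 share was 82.6% (exact Clopper-Pearson 95% interval 81.5 to 83.6%) and its ratio 1.79 (beta-binomial adjusted p = 0.00223). The windows on either side were at -0.27 and -0.025, so neighbours did not share the difference. Contacts there spanned 33 kb for 129 and 161 kb for Cas. The Chrna4 promoter printed above, rich in CpG, starts inside this window.

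On chromosome 11 (119200001 to 119250000), the window of Ccdc40 and Tbc1d16, a gene of a Rab GTPase-activating protein, gave 1590 and 311 interactions on 129 and Cas, a ratio of 1.90 (beta-binomial adjusted p = 0.00111). Distances were 167 and 878 kb, and the neighbours were at -0.32 and 0.061. The window of Csrnp1 and Ttc21a on chromosome 9 (119950001 to 120000000) had 2124 and 516, a ratio of 1.59 (beta-binomial adjusted p = 0.0132), with neighbours at -0.023 and 0.013. The window of Sp1 and Amhr2 on chromosome 15 (102400001 to 102450000) had 1533 and 423, a ratio of 1.40, and lay just inside the threshold (beta-binomial adjusted p = 0.0499). Its neighbours were at -0.17 and -0.27. In 3 of the 4 windows, all but that of Sp1, the contacts on Cas reached further.

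The remaining 12 called windows held no protein-coding gene, and 8 of them lay in 2 stretches, on chromosomes 17 and 12. The 12 were 2.05% of the 585 distal windows tested without a gene, against 1.04% of such windows elsewhere. A pair of adjoining windows on chromosome 3 (155200001 to 155300000) gave 300 and 72 interactions on 129 and Cas, then 151 and 33. On chromosome 2 (177050001 to 177100000) a window had 2 and 18. The window on chromosome 12 (116150001 to 116200000) gave 533 and 1309, a ratio of -1.75 (beta-binomial adjusted p = 0.00172), and was the only called window towards Cas with more than 100 interactions.

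The stretch on chromosome 17 (93600001 to 94450000) was bounded, after its values were seen, as the run of adjoining windows with a ratio of 0.5 or more around the highest called one. It comprised 17 windows without a protein-coding gene, with ratios from 0.61 to 3.33 and a median of 1.40. In all they gave 1942 and 361 interactions on 129 and Cas, and the 129 share was 84.3%. The window from 94300001 to 94350000 had 907 and 65, a share of 93.3% (91.6 to 94.8%) and a beta-binomial adjusted p of 8.54e-10. Its contacts spanned 11 kb for 129 and 3220.5 kb for Cas. Called windows also started at 94000001 (53 on 129 and 7 on Cas), 94100001 (74 and 11) and 94200001 (112 and 15). Of 15 windows where both alleles had at least 10 interactions, the distance was longer on Cas in 13, and the medians were 3555 kb for 129 and 9585 kb for Cas.

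At the start of the last 5 Mb of chromosome 12 (114850001 to 116050000) lie variable segments of the immunoglobulin heavy chain locus. Antibody genes are assembled from such segments in B cells, and the locus lies unrearranged in ES cells. From the first to the last distal window that overlaps a variable segment there were 21 windows. The first of these is also the first distal window of the chromosome, so any part of the locus before the 5 Mb limit is left out. The 21 windows held few contacts, with medians of 22 on 129 and 8 on Cas. Of the 17 tested, 13 lay above 0, 4 were called higher on 129, and 5 of the 21 had contacts on 129 only. The called windows gave 150 and 10 interactions on 129 and Cas (115600001 to 115650000), 38 and 3 (115850001 to 115900000), 24 and 0 (115650001 to 115700000), and 18 and 0 (115150001 to 115200000). With Cas set at 3 interactions in the pooled counts, the ratios of 129 to Cas in the last pair were 8-fold and 6-fold. These ratios take the 24 and 18 interactions on 129 as exact and are not set against the autosomal 129 share of 57.6%. The exact Clopper-Pearson intervals of the 129 share in these windows began at 85.8% and 81.5%. Where segments resemble each other the placement of reads is uncertain, and their likeness was not measured here. In the 76 windows after this locus 19 of the 75 tested lay above 0, with a median ratio of -0.22 and a median summed count of 534.

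**Figure D5:**
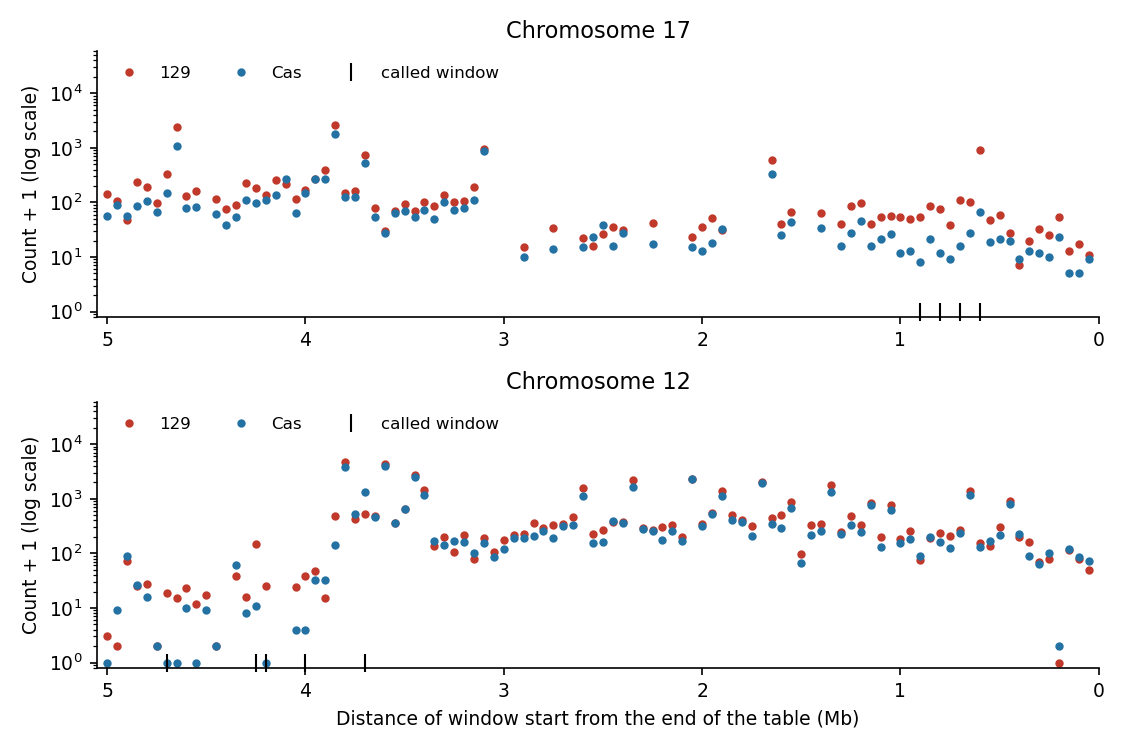
Interaction counts plus 1 on 129 (red) and Cas (blue) are plotted on a log scale for each distal window of chromosome 17 (top) and chromosome 12 (bottom) by distance from the end of the table. Black ticks mark called windows, which lie between 0.5 and 1 Mb from the end of chromosome 17 and beyond 3.5 Mb on chromosome 12.

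The third comparison asked whether either allele reached further at the ends. The 129 distance was the longer in 770 distal windows and the Cas distance in 845, and 35 had equal ones. On a log2 scale the distance on 129 over that on Cas had a median of -0.0097 at the ends and 0 elsewhere, and the distal median was lower on 12 of 19 chromosomes (median difference -0.012, SD 0.090; exact sign test, p = 0.359, adjusted p = 0.523). Chromosome 17 had the most negative distal median, -0.33, and chromosome 2 the most positive, 0.14. Distances differed at least 2-fold in 13.7% of distal windows and 17.2% of the others. Neighbouring windows had correlated distance ratios, with r = 0.275 at the ends, 0.200 without chromosome 17, and 0.173 elsewhere.

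Wide single differences also occurred in windows that were not called. The window of Acvr2b, which encodes an activin receptor, and Exog, a nuclease of mitochondria, on chromosome 9 (119400001 to 119450000) had distances of 377.5 kb for 129 and 8427 kb for Cas at counts of 1426 and 1397. Windows of Phactr3 on chromosome 2 (178250001 to 178300000; 1682 and 164 kb), Parp8 on chromosome 13 (116950001 to 117000000; 682 and 64 kb) and the zinc finger gene Zfp931 on chromosome 2 (178050001 to 178100000; 313.5 and 28 kb) had the longer distance on 129. Their counts were 322 and 192, 411 and 334, and 101 and 80. With a single distance per allele and window, these have no test.

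Among windows with at least 20 interactions for each allele, the shortest contacts spanned less than the width of a window. Those of a window without a named gene on chromosome 14 (120800001 to 120850000) spanned 4 kb for 129 and 5 kb for Cas, and those of a window on chromosome 5 (151600001 to 151650000) that holds part of Rfc3, a subunit of the replication clamp loader, spanned 5 kb on both alleles at 205 and 187 interactions. Over both windows of Rfc3 the medians were 23.5 and 6 kb. In a window of the transcription factor gene Atf7 on chromosome 15 (102600001 to 102650000) they were 14 and 13 kb, and 3324 interactions fell on 129 and 1737 on Cas. Among the longest at the same minimum were a window of Tmx3 on chromosome 18 with 14627 and 16832 kb, at 58 and 40 interactions, and a window of Mettl4 on chromosome 17 with 11450 and 11341 kb, at 53 and 22.

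The windows with the most contacts were nearly balanced. That of the hair keratin genes Krt81, Krt83 and Krt86 on chromosome 15 (101450001 to 101500000) gave 8334 and 6642 interactions on 129 and Cas, a ratio of -0.13. The window of Osbpl5 and Nadsyn1 on chromosome 7 had 6674 and 5020 (-0.043), and that of Tac2 and Myo1a on chromosome 10 had 6687 and 4802 (0.024). The ratios of the 8 windows with the highest counts lay between -0.31 and 0.024. None of the 8 was called, but at the 0.944% called among all windows, 8 are too few to differ from that share.

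Gene lists by function placed 129 of 168 genes in distal windows, and the only called window among them was that of Chrna4. Of all distal windows tested, 0.956% were called. The lists are descriptions, and medians are to be read beside 0, the median of all windows tested, and -0.034, that of all distal windows. Counts of windows above 0 are to be read beside the 45.3% of all distal windows tested. That share was 42.3% in distal windows with 1 gene and 42.3% in those with 2 or more. Genes in the same window share its values, and adjoining windows of 1 gene are not independent.

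Among the cell surface and immune lists, the chemokine receptors at the end of chromosome 9, which guide leukocytes, had all 4 of their windows below 0, with a median of -0.48. Ccr9 had 335 interactions on 129 and 346 on Cas, Xcr1 404 and 407, and Cxcr6 1935 and 1894. Of the complement regulators at the end of chromosome 1, Cd46 and Cr1l, which restrain complement, shared a window below 0, with 537 and 557. Their list also held Cd34, which is not a complement regulator, and its window, with 780 and 676, was below 0 as well. TNF receptor genes had a median of -0.080 over 3 windows, the 1 with Tnfrsf4 and Tnfrsf18 holding 5422 and 4188. Isg15 was the only interferon-stimulated gene of its list in distal windows, with 4578 and 3403 over 2 windows. Integrins, receptors of the extracellular matrix, had a median of -0.13 over 12 windows, with Itgb1 at 863 on 129 and 576 on Cas (0.13) and Itgb7 at 2411 and 2159 (-0.29).

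Regulators of development lay mostly below 0, as did a smaller majority of all distal windows with a gene. Of 37 windows of 17 transcription factor genes, 8 were above 0, with a median of -0.14. Prdm16 on chromosome 4, a factor of brown fat and neural stem cells, had 5689 interactions on 129 and 5186 on Cas over 6 windows (-0.32), Hes5, a Notch target, 2595 and 2332 (-0.30), and Ski, a repressor of TGF-beta signalling, 2037 and 1798 (-0.27). Sox18, a factor of vessel formation, was among the exceptions with 1760 and 1114 (0.21), as was Ikzf4 with 3365 and 2416 (0.025). The Hoxc cluster on chromosome 15, which patterns the body axis, was split. The window of Hoxc8 to Hoxc11 had 4275 and 2354 (0.41) and that of Hoxc12 and Hoxc13 had 4576 and 3988 (-0.25), while Hoxc4 and Hoxc5 lay at -0.047. Fibroblast growth factors had a median of -0.095 over 8 windows, with Fgf3 at 793 and 619 and Fgf10 at 2032 and 1603.

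Imprinted genes, expressed from a single parental allele, occupy 17 windows at the end of chromosome 7. Their median was 0.059, with a range of -0.48 to 0.30, and 10 of 17 lay above 0. Igf2, a growth factor, shared a window with Ins2, with 3605 interactions on 129 and 2388 on Cas (0.14). The window of the growth inhibitor Cdkn1c had 3018 and 2324 (-0.076), and Kcnq1, a potassium channel gene of 7 windows, had 5284 and 3759 (0.038). Phlda2, which limits placental growth, had 1436 and 985 (0.090), and its contacts spanned 68 kb for 129 and 162 kb for Cas. Dhcr7, the last enzyme of cholesterol synthesis, was the highest of the list with 532 and 316 (0.30), and the window of the tetraspanin gene Cd81 had 2193 and 1763 (-0.14). Keratins of chromosome 15, the filaments of epithelia and hair, had the highest counts of any list, with a median of 7758.5 per window, a median ratio of -0.12 and 2 of 14 windows above 0. These were the window of Krt6a and Krt6b, keratins of wound healing and hair follicles, with 3302 and 1963 (0.30), and that of Krt4 and Krt79 with 4886 and 3184 (0.16). The lowest was the window of Krt75 with 5757 and 5210 (-0.31).

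Ion channel genes had a median of -0.023 over 23 windows, of which 10 lay above 0. Besides Chrna4, the highest was the single distal window of Nalcn, a sodium leak channel, with 111 interactions on 129 and 34 on Cas, a ratio of 1.22 (beta-binomial adjusted p = 0.404), and distances of 538 and 4449.5 kb. Neuronal adhesion and synapse genes covered 99 windows with a median of 0.039 and a median distance of 493 kb on 129, longer than the 211 kb of all distal windows. Among them Baiap2, an organiser of actin at synapses, had 4506 and 2153 (0.61), Negr1 on chromosome 3 had 20678 and 14120 (0.097), Shank2, a scaffold of the postsynaptic side, 6926 and 5915 (-0.23) and Dscam 6947 and 5708 (-0.17).

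Genes of the cell cycle and of genome maintenance lay near the distal median, at -0.096 over 24 windows. Rtel1, a helicase that unwinds telomere loops, had 2029 interactions on 129 and 1535 on Cas (-0.051), and Brca2, which loads the recombinase at breaks, 6463 and 4639 (0.025). Kif15, a mitotic kinesin, had 3812 and 2102 (0.41), Cdca7l had 2659 and 2649 (-0.45), and Ncapg2, a condensin subunit, had 4176 and 3707 (-0.28). Genes of translation and RNA binding had 1 of 14 windows above 0, with a median of -0.18: Lars2 had 3067 and 2647, Mrps30 1141 and 979, and Pcbp2 5974 and 5087. Lipid and sterol enzymes had 4 of 5 tested windows above 0, with a median of 0.13. Alox5ap, needed to make leukotrienes, was the highest at 1021 and 590 (0.34). The 2 genes of 2-cell-like cells in distal windows, Tcstv1 and Tcstv3, had no counted contact on either allele, which does not show that they make none.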

How the data were processed

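Bowtie2 (tool) and mm10 (build) are listed in the submitters' processing notes. The rules for allele assignment, for merging the samples and for leaving out windows are not given in the sources used here. Per window and allele, the deposited table holds interaction counts (whole numbers, unnormalised) and a distance, taken to be in bp, which may be a mean or a median. Depth was 50842396 interactions on 129 and 37470557 on Cas. Intervals cover counting error only, and a contact may be counted at both ends. Setting Cas at 3 interactions allows for counting error on Cas alone. The labels do not tell whether the replicates were separate cultures.

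The members and lists were chosen with earlier results of these data known. Named windows were those with the largest count or distance ratios among called or sufficiently covered windows, the highest counts, the extreme distances, the last window of each chromosome, and list genes. Some list genes were named for their role, and the limits of 2 stretches and the set of olfactory receptor windows were chosen, after values were seen. With no genome, base composition per window was not computed. Start positions were raised by 1. Genes and promoters came from RefSeq tables of GRCm38, the assembly of mm10, matched by position and symbol; a gene stands for each window its body overlaps.

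The overdispersion of the beta-binomial test was 0.0165, which lets the 129 share of windows vary with a standard deviation of 6.35 percentage points. Windows needed 10 interactions. Sign tests were two-sided and exact over chromosomes, with Benjamini-Hochberg adjustment over 16 comparisons. The scripts were tested on simulated data. Tests used scipy 1.17.1 and numpy 2.4.6 under Python 3.11.15, tables pandas 2.3.3, and plots matplotlib 3.10.9. Some genes are not reported here.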

Additional observations from a re-analysis of the deposited data

How the results depend on the processing

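Distal and remaining windows were compared under 78 alternatives: other lengths of the end, chromosomes left out, matching on gene content, and other count minimums, pseudocounts and measures of spread. None took a comparison past the adjusted threshold of 0.05; the smallest adjusted p was 0.0708, for the distance on Cas. The shorter distal distance kept its direction on both alleles in all 12 alternatives each, from -0.86 to -0.35 on 129 and -0.92 to -0.35 on Cas, as did the lower count ratio in 13 (-0.084 to -0.013) and the smaller spread in 11 (-0.49 to -0.21). The difference in 129 share turned negative for the last 2 Mb (-0.73 percentage points) and 3 Mb (-0.039), without chromosomes 8 and 14 (-0.12) and, chosen after seeing the data, without chromosome 17 (-0.013). The log2 ratio of summed counts turned negative for the last 2 Mb (-0.49) and 10 Mb (-0.076), without the first 5 Mb in the comparison (-0.0068), without chromosome 10 (-0.0071) and when matched on gene content (-0.18). When matched on gene content the distance ratio between alleles was 0.00033. The cause of these changes was not tested.

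Called distal windows, 14 towards 129 and 2 towards Cas, numbered 351 and 443 by the exact binomial test. They numbered 4 and 0 against equal shares and 6 and 1 at a threshold of 0.01. As shares of windows tested, the binomial calls were 21.0% of distal and 27.1% of all windows towards 129, and 26.5% and 24.3% towards Cas. Against equal shares the distal and overall shares were 0.239% and 0.263% towards 129, and 0% and 0.0114% towards Cas. At 0.01 they were 0.359% and 0.448%, and 0.0598% and 0.119%. Towards Cas, 1 was called at a minimum of 30 interactions (0.0605%, against 0.188% of all windows). With the overdispersion estimated by quartile of count, 1 was called towards Cas (0.0598%, against 0.174%). The cause was not tested. Windows with few contacts limit what can be seen. No paired analysis was possible because both samples belong to the same group and the columns hold their pooled values, and for the same reason no replicate could be left out.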
